A study of Mus musculus with 6 samples.

Results

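The genes described here encode phase II conjugation enzymes, which attach a polar group to bilirubin, steroids, drugs and reactive metabolites. They were chosen as a list of 36 named genes: 10 UDP-glucuronosyltransferases (UGTs), Ugdh, 16 cytosolic and related glutathione S-transferases (GSTs), 2 microsomal GSTs, 5 sulfotransferases (SULTs) and 2 methyltransferases. Each gene was read from its brightest probe set annotated to that gene alone. Of the 36 genes, 35 had such a probe set and 34 passed the filter on low values (log2 above 4 on 3 or more arrays), out of 8554 genes tested in all. Ugt1a1 had no probe set of its own, and Sult1c2 lay under the filter.

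The RNA came from whole livers collected 18 hours after partial hepatectomy, with 3 arrays per group, lettered A, B and C in each. Cre plus mice carried Socs3 fl/fl and a Cre recombinase transgene driven by the albumin promoter, which is active in hepatocytes. Cre minus mice were Socs3 fl/fl littermates without Cre. All mice were C57BL/6, and both groups shared the floxed Socs3 alleles and the surgery. The labels give neither the age of these mice nor whether each array is a separate animal, so p-values speak only of the spread among these arrays, part of which may be technical. With no liver from before surgery and no Cre control without the floxed allele among these arrays, a difference that preceded surgery or came from Cre itself cannot be told apart from the loss of Socs3.

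As a check of the deletion, Socs3 read 7.44, 6.69 and 7.47 in Cre plus, against 9.09, 9.30 and 9.24 in Cre minus on its brightest probe set (log2 values), and all Cre plus arrays were also lower on its other probe sets. Over all genes tested, Cre plus B correlated at 0.991 to 0.993 with the Cre minus arrays. Within its own group it correlated at 0.987 to 0.989. Cre plus A and C correlated at 0.990 with each other and at 0.982 to 0.988 with the Cre minus arrays. Results for Ugt2b38 and Gstt2, and the counts and median of the members, are also given without Cre plus B. All 9 measured hepatocyte markers were kept, with a log2 summed level of 17.64 to 17.75 in Cre plus and 17.70 to 17.74 in Cre minus, a sum led by probe sets near the top of the scale. Of these 9, 6 were lower in value, among them Cps1 at -0.50 and Asgr1 at -0.23. The 3 higher ones were Tat at 0.39, Hnf4a at 0.11 and Fgb at 0.06. Kupffer cell and macrophage markers had 12 of 12 tested genes lower in value, with a summed level of 11.68 to 11.97 in Cre plus and 12.14 to 12.27 in Cre minus. Sinusoidal endothelial markers had 9 of 10 lower, with 11.21 to 11.50 in Cre plus and 11.52 to 11.71 in Cre minus. These marker counts stand beside 53.5% of all genes tested that were lower in value. Stellate cell markers summed to 11.28 to 11.61 in Cre plus and 11.26 to 11.34 in Cre minus. Neutrophil markers summed to 9.02 to 10.75 in Cre plus, highest in Cre plus A, and 9.23 to 9.30 in Cre minus. Of 7 measured neutrophil markers, only S100a8 and S100a9 were kept, and 5 (Ngp, Camp, Ltf, Mpo and Elane) were under the filter. The cholangiocyte markers Krt19, Krt7, Epcam and Cftr and all 9 measured lymphocyte markers were under the filter. The cholangiocyte marker Sox9, also found in other cells, was kept, at 6.70, 5.94 and 5.96 in Cre plus, against 5.60, 5.95 and 5.91 in Cre minus, and the cholangiocyte markers summed to 6.58 to 7.11 in Cre plus and 6.34 to 6.61 in Cre minus. The role of these cell types in the members' values was not tested, and in whole liver fewer cells of a type and less RNA per cell cannot be told apart.

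UGTs transfer glucuronic acid from UDP-glucuronic acid, which Ugdh makes from UDP-glucose. GSTs couple glutathione to electrophiles and help dispose of the products of lipid peroxidation. SULTs transfer sulfate from the donor PAPS, and the methyltransferases use S-adenosylmethionine. Hepatocytes express most of these enzymes strongly, and their transcription is known to respond to the nuclear receptors CAR and PXR, to the oxidant sensor NRF2 and to hepatocyte factors such as HNF1. SOCS3 dampens JAK-STAT3 signalling after cytokines such as interleukins bind their receptors, and inflammatory cytokines are known to lower many genes of drug metabolism.

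Ugt2b38, one of the UGT2B enzymes encoded in a cluster on chromosome 5, had the largest log2 difference of any member, with higher values in Cre plus livers, while most other members had slightly lower values. Ugt2b38 and Ugt2b5, another gene of that cluster, had log2 differences of opposite sign, neither of which passed limma's adjusted p under 0.05. Their promoters were the most alike among the members of the cluster, so their sequences are shown first. Whether promoter sequence bears on these differences was not tested. Each stretch is the 250 bases before the annotated gene start, 5′ to 3′ on the gene's strand, from RefSeq on GRCm38.p6. Ugt2b38 lies at chr5:87424204-87424453 on the minus strand and Ugt2b5 at chr5:87140341-87140590 on the minus strand. Capitals mark bases that differ from the other gene, or have no partner in it, in a global alignment.
Ugt2b38: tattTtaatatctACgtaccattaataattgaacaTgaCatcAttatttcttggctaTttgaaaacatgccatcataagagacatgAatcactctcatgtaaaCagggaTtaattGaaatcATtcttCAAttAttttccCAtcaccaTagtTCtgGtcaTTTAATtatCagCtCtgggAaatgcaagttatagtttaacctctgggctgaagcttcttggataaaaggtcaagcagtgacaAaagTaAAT
Ugt2b5: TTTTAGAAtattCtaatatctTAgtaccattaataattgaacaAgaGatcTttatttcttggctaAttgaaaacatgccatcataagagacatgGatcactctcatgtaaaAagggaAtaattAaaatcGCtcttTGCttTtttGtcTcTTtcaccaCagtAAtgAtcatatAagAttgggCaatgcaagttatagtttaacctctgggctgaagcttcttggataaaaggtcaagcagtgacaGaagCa

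Of the 250 bases, 240 were aligned and 212 (84.8% of the 250) were identical, while 38 differed or had no partner. The longest shared run was 62 bases, ending 10 bases before the start of Ugt2b38 and 7 bases before that of Ugt2b5. The 35 other pairs among the 9 member genes of this cluster had 42.0% to 64.8% identical bases, with a median of 54.0%. Pairs of a UGT with a sulfotransferase gene reached 55.2% (Ugt2b34 with Sult1b1), beside 54.8% for Ugt2b34 with Ugt2b35. Values in this range therefore need not mark related promoters, and the identity of unrelated sequences in this alignment was not computed. The 80 bases before the start of Ugt2b36 (chr5:87092556-87092635, minus strand) and of Ugt2b35 (chr5:87000780-87000859, plus strand) are shown as the next most alike to Ugt2b38 over this stretch after Ugt2b5. Capitals mark what differs from the 80 bases before Ugt2b38 or has no partner in them.
Ugt2b36: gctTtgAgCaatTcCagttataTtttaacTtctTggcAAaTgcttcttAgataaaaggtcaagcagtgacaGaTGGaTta
Ugt2b35: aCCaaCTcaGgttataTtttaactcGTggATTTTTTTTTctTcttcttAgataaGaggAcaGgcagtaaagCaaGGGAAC

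Over these 80 bases Ugt2b5 had 90.0% identical bases with Ugt2b38, Ugt2b36 had 78.8% and Ugt2b35 had 62.5%. The other UGTs of the cluster had 53.8% (Ugt2a3), 50.0% (Ugt2b34) and 48.8% (Ugt2b1), and the sulfotransferase genes had 51.2% (Sult1d1) and 38.8% (Sult1b1). The GSTM genes, which also form a cluster, were less alike than Ugt2b38 and Ugt2b5, with 45.2% to 57.2% identical bases over 250 in 21 pairs of 7 promoters.

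Ugt2b38 had log2 values of 9.71, 9.54 and 9.48 on the Cre plus arrays, against 7.24, 7.83 and 6.79 on the Cre minus arrays, always in the order A, B, C. All 3 Cre plus arrays lay above every Cre minus array, and the Cre minus arrays were the more scattered (SD 0.12 in Cre plus and 0.52 in Cre minus, n = 3 each). The log2 difference, Cre plus minus Cre minus, was 2.29 ± 0.26 (SE), a 4.90-fold higher signal with a 95% interval of 3.16 to 7.61. With limma's adjustment over all 8554 genes it had adjusted p = 0.0732 and did not pass 0.05. Without Cre plus B the difference was 2.31 (adjusted p = 0.0674). Of 15 alternatives only a stricter filter, log2 above 6, which tests fewer genes, brought it past the threshold, at adjusted p = 0.0321. The exact permutation p was 0.1, the smallest that 3 arrays against 3 can give.

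The other UGTs of the cluster had smaller differences, all negative but that of Ugt2b1, and none passed the adjusted threshold. Ugt2b35 had 10.90, 10.94 and 10.48 in Cre plus, against 11.50, 11.20 and 11.52 in Cre minus, a log2 difference of -0.63 ± 0.16 with adjusted p = 0.190. Its groups did not overlap. Ugt2b5 had 12.98, 13.15 and 12.86 in Cre plus, against 13.33, 13.18 and 13.27 in Cre minus, also without overlap, and a log2 difference of -0.26 ± 0.09 (adjusted p = 0.288).

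Ugt2b34 had 10.20, 10.72 and 10.51 in Cre plus, against 11.17, 10.68 and 10.99 in Cre minus. Here Cre plus B lay above Cre minus B, so the groups overlapped, and the log2 difference was -0.47 ± 0.18 (adjusted p = 0.306). A further probe set of Ugt2b34 gave a difference of the same size, -0.47. The remaining cluster genes overlapped between groups, with log2 differences of -0.20 ± 0.09 for Ugt2b36, -0.18 ± 0.10 for Ugt2a3 and 0.18 ± 0.11 for Ugt2b1. UGT2B genes are close copies of each other, and which related transcripts each probe set binds was not tested. Ugt2b37, a cluster gene outside the list, was read by a probe set under the filter, at 3.58 to 3.62 in Cre plus and 3.56 to 3.57 in Cre minus.

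**Figure D1:**
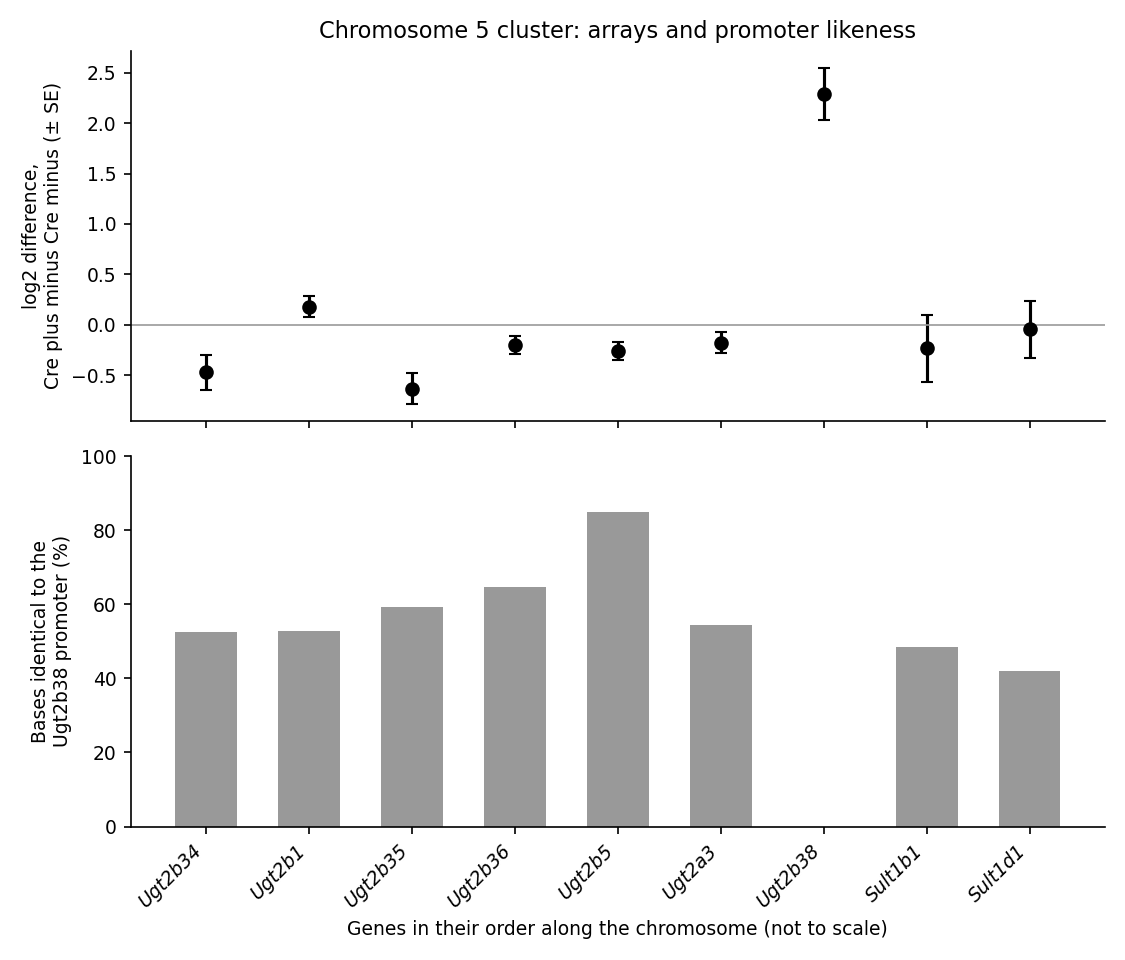
Top: log2 difference (Cre plus minus Cre minus, 3 arrays each) with limma's SE for the 9 member genes of the chromosome 5 cluster, in gene order. Bottom: percent of the 250 bases before the gene start identical to those of Ugt2b38 in a global alignment, with no bar for Ugt2b38 itself. Ugt2b38 stands at 2.29, while Ugt2b5, with 84.8% identical promoter bases, stands at -0.26.

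The UGT3A genes lie outside the cluster, and their human counterparts are known to use UDP-sugars other than UDP-glucuronic acid. Ugt3a2 had 10.98, 11.40 and 11.33 in Cre plus, against 11.77, 11.49 and 11.52 in Cre minus, without overlap and with a log2 difference of -0.36 ± 0.14 (adjusted p = 0.316). Ugt3a1 differed by -0.23 ± 0.15 with overlapping groups, and by -0.04 on its other probe set.

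Ugt1a1, which conjugates bilirubin, shares its last exons with the other Ugt1a genes. The 3 probe sets there were annotated to 8 Ugt1a genes together and cannot be assigned to one of them. Their joint readings had log2 differences of -0.18 ± 0.05, -0.15 ± 0.08 and -0.21 ± 0.08, and the groups did not overlap on 2 of the 3. Ugdh, which supplies the sugar donor, had 10.58, 10.28 and 10.24 in Cre plus, against 10.80, 10.39 and 10.80 in Cre minus. Cre plus A lay above Cre minus B, and the log2 difference was -0.30 ± 0.15 (adjusted p = 0.419).

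Among the GSTs, 15 of 16 (93.8%) had a negative log2 difference, beside 53.5% of all genes tested, and none passed limma's adjusted p under 0.05. Gstm4, a mu-class enzyme, had the largest of these in size. Its values were 6.66, 6.75 and 6.63 in Cre plus, against 7.97, 7.31 and 7.44 in Cre minus, a log2 difference of -0.89 ± 0.17 (adjusted p = 0.143), which is 0.538 times the Cre minus signal (95% interval 0.400 to 0.724). The Cre plus arrays were close together (SD 0.06) and all under the Cre minus arrays (SD 0.35).

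The theta-class genes Gstt1 and Gstt2 also had groups that did not overlap. Gstt1 had 9.99, 10.16 and 10.12 in Cre plus, against 10.44, 10.33 and 10.58 in Cre minus, with a log2 difference of -0.36 ± 0.09 (adjusted p = 0.192). Gstt2 had 9.88, 9.39 and 9.88 in Cre plus, against 10.35, 10.19 and 10.15 in Cre minus, with a log2 difference of -0.51 ± 0.15 (adjusted p = 0.238), and of -0.35 without Cre plus B (adjusted p = 0.137). In the third theta-class gene, Gstt3, the difference rested on 1 array, since it had 5.71, 4.03 and 5.72 in Cre plus, against 5.69, 5.74 and 6.01 in Cre minus.

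Gstk1, a kappa-class enzyme of mitochondria and peroxisomes, had 9.52, 9.78 and 9.72 in Cre plus, against 10.05, 9.84 and 10.13 in Cre minus, again without overlap. Its log2 difference was -0.34 ± 0.11 (adjusted p = 0.258). The single GST with a positive difference was Gstm6, at 7.96, 7.94 and 7.95 in Cre plus, against 7.89, 7.78 and 7.91 in Cre minus. Its groups did not overlap, but the difference was small, 0.09 ± 0.06 (adjusted p = 0.513).

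The alpha-class genes and the other mu-class genes overlapped between groups. Gsta4, which removes the lipid peroxidation product 4-hydroxynonenal, and Gstm3 varied with the array. Gsta4 had 6.81, 6.54 and 7.75 in Cre plus, against 7.60, 7.11 and 7.77 in Cre minus. Gstm3 had 8.20, 7.85 and 8.95 in Cre plus, against 8.54, 8.32 and 8.94 in Cre minus. In both genes Cre plus A and B lay under every Cre minus array and Cre plus C lay among them or above. Gsta3, the enzyme that detoxifies aflatoxin epoxide in mice, differed by -0.34 ± 0.20 on its brightest probe set. On its dimmer probe set it differed by -0.51, with groups that did not overlap. Gsta2, Gstm1, Gstm2, Gstm5 and Gstm7 had log2 differences from -0.22 to -0.18.

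Gstp1 had 14.74, 14.78 and 14.75 in Cre plus, against 14.85, 14.79 and 14.76 in Cre minus, close to the top of the scale, where the highest value in the table was 15.7. Its log2 difference was -0.04 ± 0.05, with a 95% interval of 0.888 to 1.07 for the ratio. Gsto1, which reduces dehydroascorbate, depended on the probe set. The brighter one, of the _x_at kind that can bind related transcripts, differed by -0.06 ± 0.08 with overlap, while the other had 8.29, 8.30 and 8.53 in Cre plus, against 8.74, 8.61 and 8.74 in Cre minus, a difference of -0.32 without overlap.

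**Figure D2:**
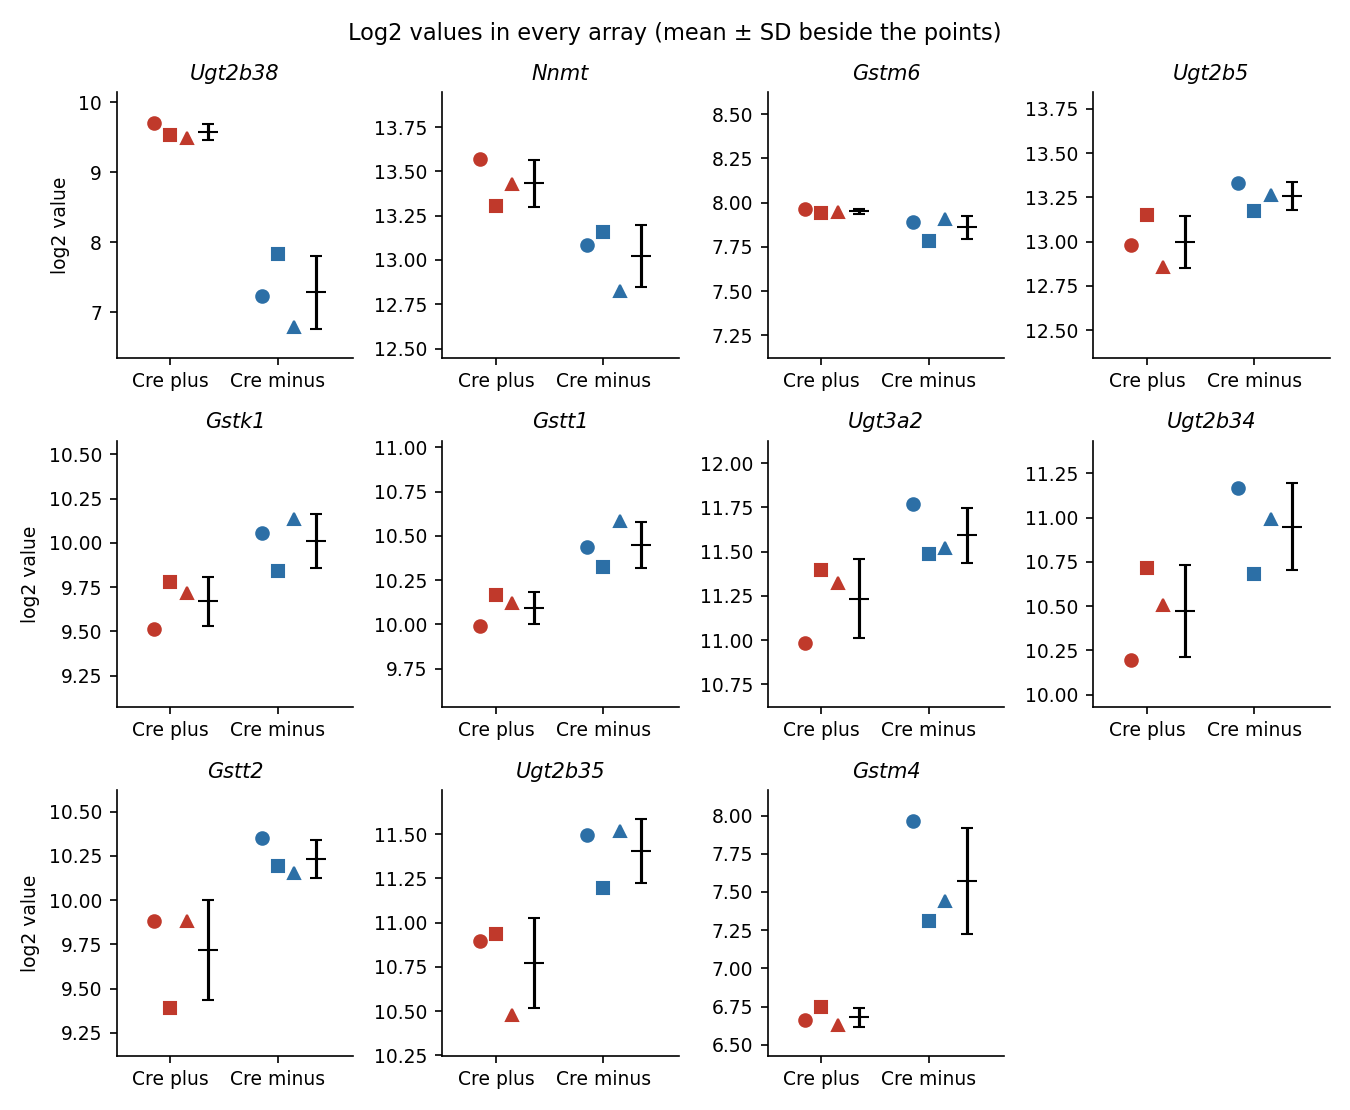
Log2 values in every array for the 11 members whose groups did not overlap or whose unadjusted limma p was under 0.05, ordered by log2 difference. Circles, squares and triangles are arrays A, B and C, and the bars give mean ± SD (n = 3). Ugt2b38, Nnmt and Gstm6 were above in all Cre plus arrays, 7 members were below in all of them, and Ugt2b34 overlapped.

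The microsomal GSTs sit in membranes, Mgst1 in the endoplasmic reticulum and outer mitochondrial membrane. Mgst1 had 14.58 in each of Cre plus A, B and C, against 14.62, 14.50 and 14.55 in Cre minus, also near the top of the scale. Its log2 difference was 0.02 ± 0.06, with a 95% interval of 0.923 to 1.12 for the ratio. Mgst3 differed by -0.32 ± 0.18, with Cre plus B the lowest array at 5.45.

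The sulfotransferases gave no call and no separation of the groups. Sult1a1, which sulfates phenols, had 12.60, 12.55 and 12.95 in Cre plus, against 12.88, 12.71 and 12.61 in Cre minus, a log2 difference of -0.04 ± 0.13. Its ratio had a 95% interval of 0.780 to 1.22. Sult1b1, a thyroid hormone sulfotransferase of the same chromosome 5 cluster, had 5.94, 6.30 and 6.11 in Cre plus, against 6.65, 6.82 and 5.59 in Cre minus, where it was the more scattered. Sult1d1, which acts on catecholamines, differed by -0.05 ± 0.28 on its brightest probe set and by 0.15 on the other, the only member whose probe sets disagreed in sign. Sult5a1 differed by 0.15 ± 0.14 just above the filter. Sult1c2, which was not tested, had 2.62, 2.91 and 2.63 in Cre plus, against 2.63, 2.63 and 2.62 in Cre minus.

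The methyltransferases differed from each other. Nnmt, which methylates nicotinamide, had 13.57, 13.30 and 13.43 in Cre plus, against 13.09, 13.16 and 12.83 in Cre minus. All 3 Cre plus arrays were higher, with a log2 difference of 0.41 ± 0.11 and adjusted p = 0.220. Tpmt, which methylates thiopurine drugs, differed by -0.25 ± 0.11 with overlapping groups, and its 3 other kept probe sets gave -0.18 to -0.10.

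Of the 34 members tested, 28 (82.4%) had negative log2 differences, beside 53.5% of all genes, and 6 had positive ones. The median was -0.23, against -0.01 over all 8554 genes tested. No member passed limma's adjusted p under 0.05 in either direction, where 0.0234% of all genes passed as higher and 0% as lower. At an unadjusted p under 0.05, 8 members (23.5%) were lower, beside 8.21% of all genes, and 2 members (5.88%), Ugt2b38 and Nnmt, were higher, beside 6.62%. The groups did not overlap, with Cre plus lower, in 7 members (20.6%), beside 11.9% of all genes. They did not overlap, with Cre plus higher, in 3 members (8.82%), beside 9.21%. The lower side therefore held a larger share of members than of all genes, and the higher side a share near that of all genes. The count of 8 went to 3 without Cre minus A, to 5 without Cre plus A or Cre minus C, and to 10 without Cre plus B, where the median was -0.20. The count of 7, which can only grow with fewer arrays, went to 15 without Cre plus C or Cre minus B, to 12 without Cre plus B and to 11 without Cre minus C. The shares of all genes without these arrays were not computed, so these counts cannot be set beside 8.21% and 11.9%. The members were measured on the same arrays, so they are not independent of each other.

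The size of the lower values differed between the Cre plus arrays. Over the 34 members, the median difference from the Cre minus mean was -0.33, -0.19 and -0.07 on the Cre plus arrays, against 0.06, -0.08 and 0.01 on the Cre minus arrays. Cre plus C thus lay inside the range of the Cre minus arrays on this median, and Cre plus A lay farthest from it. Of the members, 22 were below every Cre minus array on Cre plus A, 20 on B and 13 on C. The share of all genes tested that did so on each array was not computed, so these counts have no background beside them. On the Cre plus arrays the UGTs had medians of -0.33, -0.13 and -0.27, against 0.11, -0.10 and 0.00 on the Cre minus arrays. The GSTs had -0.34, -0.26 and -0.06 on the Cre plus arrays, against 0.03, -0.15 and 0.10 on the Cre minus arrays.

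**Figure D3:**
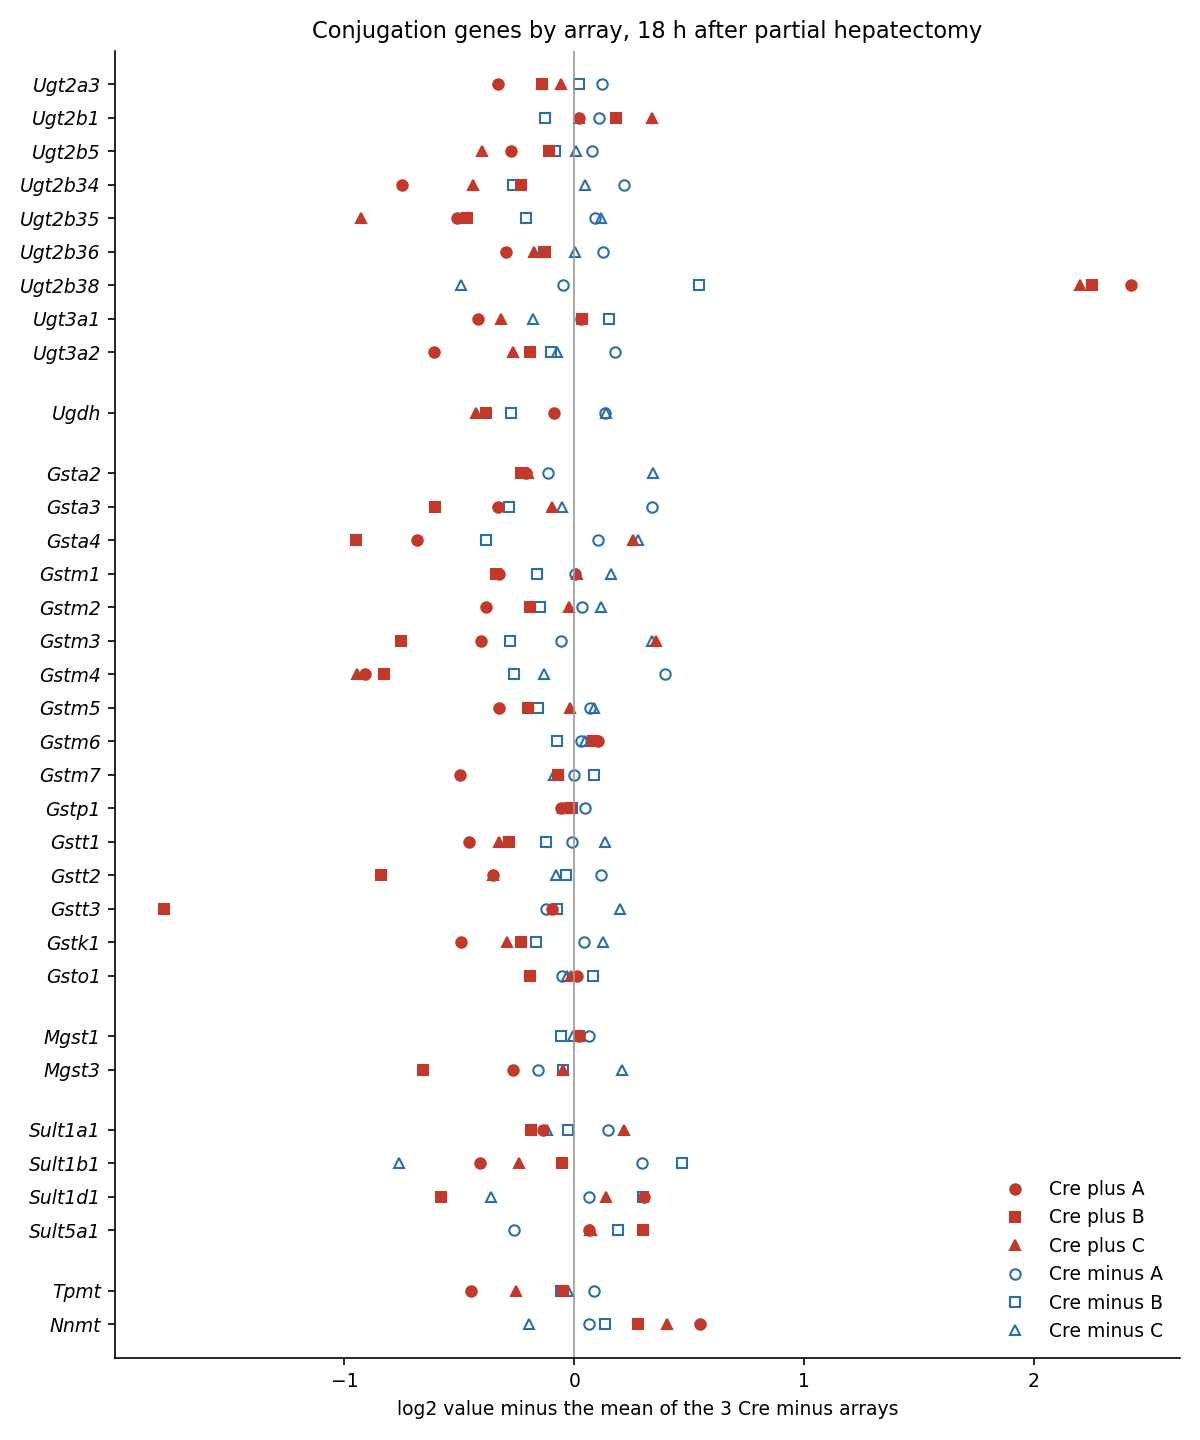
Each array's log2 value minus the mean of the 3 Cre minus arrays, for the 34 members tested, grouped as UGTs, Ugdh, GSTs, microsomal GSTs, SULTs and methyltransferases. Filled red marks are Cre plus and open blue marks Cre minus, with shapes for A, B and C. Ugt2b38 lies above 2 in all Cre plus arrays, Gstt3 is low in Cre plus B alone, and most other red marks lie left of 0.

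Genes that work beside the conjugation enzymes were read from further lists, and no gene of these lists passed limma's adjusted p under 0.05. Of all genes tested, 53.5% had a negative difference, which is the share beside which the counts of lower values stand. Some genes are in several lists and are counted in each: Gclc and Gclm in cofactor supply, NRF2 targets and other conjugating enzymes, Ephx1 in the NRF2 targets and other conjugating enzymes, Abcc2 and Abcc3 in transporters and NRF2 targets, Slco1a1 in transporters and male-biased genes, and Ahr in regulators and pericentral genes. Of 13 regulators tested, 10 were lower in value, 2 of them at an unadjusted p under 0.05 (beside 8.21% of all genes), and 1, Cebpb, was higher at that level. Nr1i3, which encodes the receptor CAR, had 8.84, 8.88 and 8.57 in Cre plus, against 9.69, 9.36 and 9.52 in Cre minus, a log2 difference of -0.76 ± 0.12 (adjusted p = 0.0995). Nr1i2, which encodes PXR, differed by -0.40 ± 0.11, and both genes had groups that did not overlap. The transcription factor Cebpb differed by 0.51 ± 0.07.

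All 11 tested transporters that carry conjugates, bile acids or organic ions were lower in value, 7 of them at an unadjusted p under 0.05 (beside 8.21% of all genes), with a median of -0.44. The leading ones were the exporter Abcg2 (-0.35 ± 0.08), the bile acid importer Slc10a1 (-0.82 ± 0.22) and the organic anion importer Slco1a4 (-0.80 ± 0.23). On this list the 3 Cre plus medians, -0.57, -0.42 and -0.44, all lay under those of Cre minus, 0.15, -0.11 and -0.08.

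Of 20 genes of cofactor supply, 14 were lower and 6 higher in value, of which 6 and 1 had an unadjusted p under 0.05, beside 8.21% of all genes lower and 6.62% higher. Ugp2, which makes UDP-glucose upstream of Ugdh, differed by -0.46 ± 0.06 (adjusted p = 0.0740), Suox by -0.66 ± 0.19, and the PAPS transporter Slc35b3 by 0.46 ± 0.12. Of 17 NRF2 targets, 13 were lower, with catalase (Cat) at -0.30 ± 0.06 and the glutathione synthesis enzyme Gclc at -0.52 ± 0.18, while thioredoxin reductase Txnrd1 stood at 0.34 ± 0.08. At an unadjusted p under 0.05, 7 of these targets were lower and 1 was higher. Of 16 other conjugating or hydrolysing enzymes, 12 were lower, led by the epoxide hydrolase Ephx2 (-0.50 ± 0.08), the arsenic methyltransferase As3mt (-0.32 ± 0.06) and Mettl7a1 (-0.55 ± 0.14). All 8 tested genes of a list of beta-glucuronidase, sulfatases and carboxylesterases were lower in value, with a median of -0.13 and Arsb, a sulfatase, at -0.25 ± 0.10.

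Position in the liver lobule did not separate the lists in direction. Of 16 pericentral genes, 13 were lower with a median of -0.22, and of 14 periportal genes, 13 were lower with a median of -0.36. At an unadjusted p under 0.05, 4 pericentral and 7 periportal genes were lower, beside 8.21% of all genes. Examples were pericentral Oat (-0.66 ± 0.17) and Slc1a2 (-0.95 ± 0.26) and periportal Hsd17b13 (-0.61 ± 0.08) and Etnppl (-1.33 ± 0.35). Of 9 male-biased genes 6 were lower, a share near that of all genes. At an unadjusted p under 0.05, 3 of the 9 were lower and 0 higher, with Elovl3 at -1.11 ± 0.30. The 5 female-biased genes tested had differences from -0.53 ± 0.51 (Acot3) to -0.002 ± 0.048 (Cux2), all with overlapping groups.

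**Figure D4:**
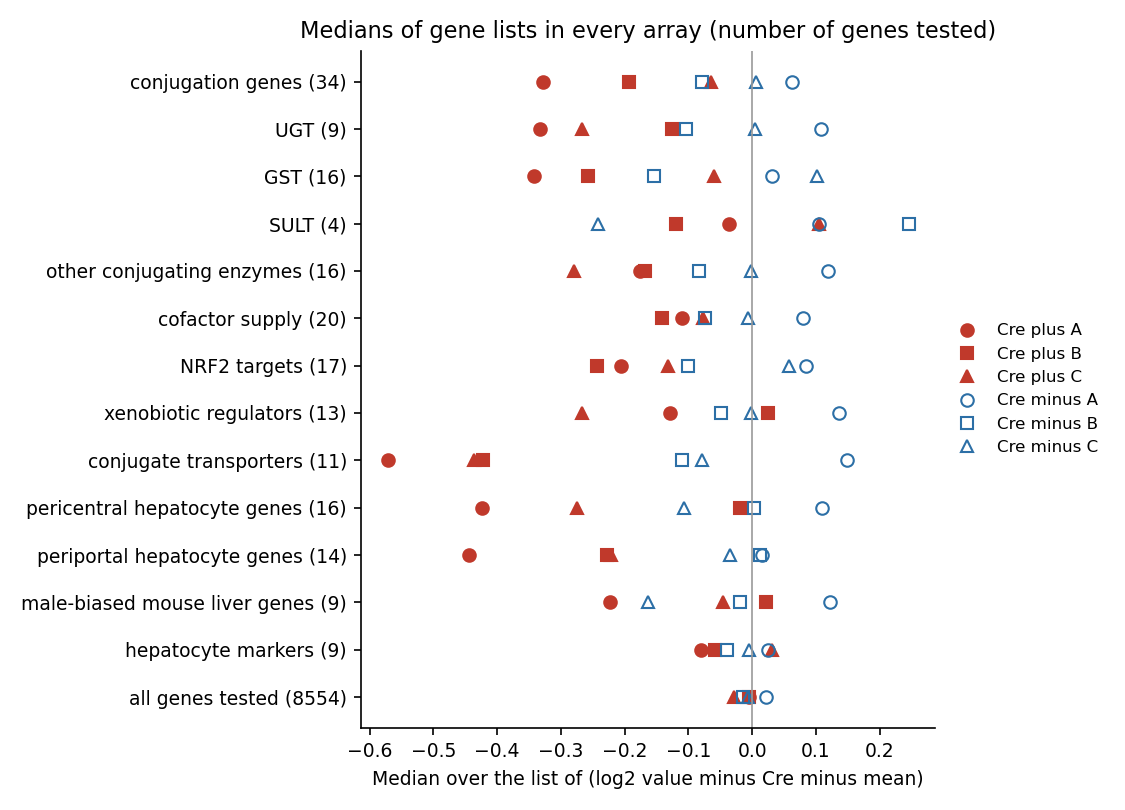
Median over each list of the log2 value minus the Cre minus mean, in every array (filled red, Cre plus; open blue, Cre minus), with the number of genes tested in brackets. The conjugate transporters stand at -0.57 to -0.42 in Cre plus, the conjugation genes at -0.33 to -0.07, and the hepatocyte markers and all genes tested near 0.

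Of 33 further UGT, GST and SULT genes, 5 were tested. Gstz1, which acts in tyrosine breakdown, differed by -0.35 ± 0.10 without overlap. Sult1e1, the estrogen sulfotransferase, is the next gene beyond Sult1d1 on chromosome 5 and had the widest spread. It had 8.997, 4.44 and 9.37 in Cre plus, against 2.85, 6.00 and 4.39 in Cre minus. Cre plus A and C were high and Cre plus B lay below Cre minus B, and the log2 difference of 3.19 ± 1.51 had adjusted p = 0.394. Gstp3 differed by 0.38 ± 0.24.

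Promoter windows (250 bases before to 50 after the start) were found in RefSeq for 32 of the 36 members, 40 windows in all. The motifs were searched on both strands, and no match of one overlapped a match of another. The STAT motif TTCNNNGAA was in 2 member windows (5.0%), those of Gstm6 and Mgst1, and in 8.3% of all 32851 windows. The core of the antioxidant response element, TGACNNNGC, was in 5 member windows (12.5%), of Gsta3, Gstm5, Gstm7, Mgst1 and Ugdh, and in 12.4% of all. The HNF1-type motif GTTAAT was in 6 (15.0%), of Gsta3, Sult1a1, Sult1d1, Ugt1a1, Ugt2a3 and Ugt3a1, and in 7.1% of all. None of these motifs was found in the windows of Ugt2b38 or Ugt2b5.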

How the data were processed

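Gene expression was measured on Affymetrix Mouse Genome 430 2.0 arrays with 2 ug of total RNA each. Per the submitters' processing notes the deposited values came from GCRMA, with no version given, and per the range of the values the deposited table is on a log2 scale. GCRMA corrects background by probe sequence, normalizes arrays together and compresses differences of dim probe sets. Array medians were 2.98 to 3.02. Arrays have no read depth, and precision is limited by their number.

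Of 45101 probe sets, 64 were controls, 13 of them with a symbol, and controls were not tested. Symbols came from the platform annotation, checked by Entrez ID against RefSeq genes of GRCm38.p6 (34754 of 34958 single-symbol probe sets matched and 0 symbols changed). A further 932 probe sets had several symbols and 9211 none, controls included. Non-control probe sets reaching a log2 of more than 4 on 3 or more arrays were kept (15563), and each gene was read from its brightest kept single-symbol one. Levels of different probe sets were not compared. Groups were fitted as Cre plus minus Cre minus in limma 3.58.1 (R 4.3.3; lmFit, eBayes, two-sided, no block, Benjamini-Hochberg over 8554 genes). All adjusted p-values are limma's. The fit was tested on simulated data with noise drawn independently for each gene and array. That simulation does not cover genes or arrays that vary together. Exact permutation tests are two-sided.

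The members, lists and tests were chosen with earlier results of these data known. Values in every array are given for members whose groups did not overlap or with an unadjusted p under 0.05, and for 1 leading member per class. Gstt3, Gsta4, Gstm3, Sult1b1 and Sult1c2, the dimmer probe sets of Gsta3 and Gsto1, and the neighbours Sult1e1 and Ugt2b37 were described after their values were seen. From each list up to 3 genes with the smallest p are named. Promoters were aligned end to end with Biopython 1.88 (gaps at the ends free). A planned comparison of protein sequences was not run. Promoter identity was not among the planned comparisons, and the comparisons with Ugt2b38 were chosen with its values known. The labels do not say that equal letters pair arrays, so the letters were not taken as pairs. Same-letter arrays had correlations of deviations from group means of -0.15, -0.10 and 0.02 for A, B and C. With 3 arrays per group these correlations cannot settle whether the letters pair arrays. The alternatives were other normalizations, filters, priors and probe set rules, a replicate block, array weights, and leaving out each array.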

Additional observations from a re-analysis of the deposited data

How the results depend on the processing

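The call and overlap counts, the median of the members, the calls over all genes and the 15 members whose array values were named by rule were recomputed under 15 alternatives, 6 of which left out 1 array. The other members, the further lists and the marker sums were not. The count of members past adjusted p under 0.05 was 0 higher and 0 lower except under a stricter filter (log2 above 6), which tests fewer genes and gave 1 higher member, Ugt2b38. Its log2 difference was 2.05 to 2.56 without single arrays and 2.29 to 2.40 otherwise, with adjusted p from 0.0321 to 0.291. Members higher at an unadjusted p under 0.05 numbered 2 throughout, and lower ones 3 to 10 without single arrays (the lowest when Cre minus A was left out) and 6 to 10 otherwise. Members that did not overlap numbered 8 to 15 lower and 3 to 4 higher without single arrays, and 7 to 9 lower and 2 to 3 higher otherwise. The shares of all genes at an unadjusted p under 0.05 or without overlap were not computed under these alternatives. The median of the members was -0.28 to -0.16 without single arrays and -0.26 to -0.21 otherwise.

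Over all genes, the calls were 0 to 10 higher and 0 to 3 lower without single arrays, 0 higher with no filter, and 38 higher and 18 lower under the stricter filter. With the letters as a replicate block, 0 genes were higher over all genes at the adjusted threshold and 6 members lower at the unadjusted one, and the median of the members stayed at -0.23. The block changed no call of a member at the adjusted threshold, and Ugt2b38 had adjusted p = 0.213 under it. Mgst1 turned to -6.3e-05 after quantile normalization and ran from -0.0064 (Cre minus B left out) to 0.0529 without single arrays. Sult1a1 ran from -0.161 to 0.0406, positive when Cre plus A, Cre plus B or Cre minus A was left out. The cause of these shifts was not tested, and the Mgst1 and Sult1a1 values that changed sign are each smaller than their SE. Values near the bottom of the scale (Sult1c2, Sult5a1, Ugt2b37) carry little signal over background.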
